A study of Sus scrofa with 6 samples.

Results

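CD55 encodes decay-accelerating factor, a complement regulator on the cell surface, and was measured here by 1 of 12258 probes in porcine oocytes before and after in vitro maturation. The probe was taken as the one whose single gene symbol in the platform annotation is CD55 (Entrez gene 396743), from 10715 probes with 1 symbol that stand for 10663 genes. The gene was singled out because of its large decrease, so its before and after levels are given as a description, with no test.

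Complement is a cascade of plasma proteins that coats cells with fragments of C3 and C4 and can end in a membrane attack pore. CD55 is built of sushi repeats, is held on the membrane by a glycosylphosphatidylinositol (GPI) anchor, and speeds the decay of the C3 and C5 convertases that drive the cascade. CD46 and CD59 protect the same membranes at other steps, and CD55 also binds the adhesion receptor ADGRE5 (CD97). Follicular fluid carries complement proteins, and membrane regulators of complement are known from mammalian oocytes and sperm.

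Each of the 6 arrays was made from total RNA of a pool of 50 oocytes of pubertal crossbred Landrace gilts, and the groups had 3 arrays each. The labels give 100 ng of RNA and 2 rounds of amplification for every pool. The first group was sampled before maturation, although its titles call the oocytes in vivo. The second came from cumulus-oocyte complexes, oocytes within their somatic cumulus cells, kept for 44 h at 38 °C under 5% CO2 in TCM-199 medium with albumin, cysteine, porcine follicular fluid and the gonadotropins hCG and eCG. A dye test (brilliant cresyl blue) named in the design is not tied to single samples in the labels, and nothing in the labels says whether cumulus cells were stripped before RNA extraction. Culture was given to the matured pools alone, so the effects of maturation and of culture cannot be told apart. The values are log2 levels made with RMA, whose array medians lay between 5.62 and 5.70. Correlations across probes, which are not independent replicates, were 0.989 to 0.995 within groups and 0.965 to 0.983 between them. The 12 measured oocyte markers were present throughout, with a mean log2 level of 11.2 to 11.4 on the arrays before maturation and 11.1 to 11.2 after it.

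Before maturation the log2 level of CD55 was 8.87 in replicate 1, 8.87 in replicate 2 and 9.38 in replicate 3. After maturation it was 4.18, 4.25 and 3.99 in replicates 1, 2 and 3. Every array before maturation was far above every array after it, and the closest arrays of the groups were still 4.62 log2 units apart. Within a group the largest distance between arrays was 0.51 before and 0.26 after maturation.

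**Figure D1:**
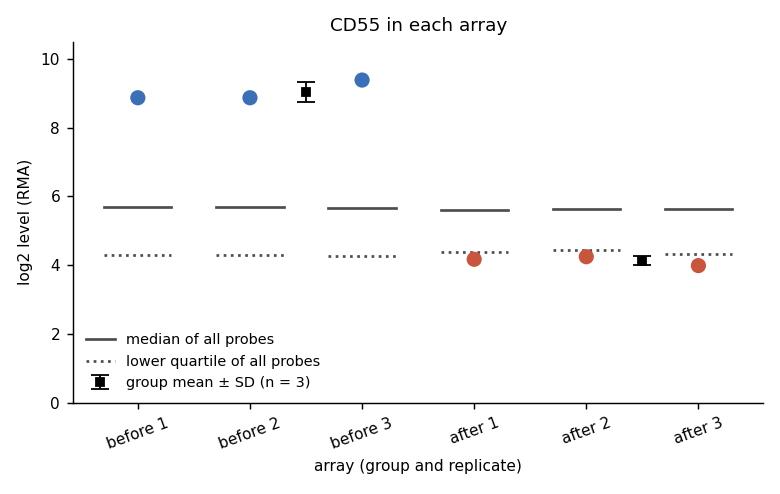
Log2 level of CD55 (points, blue before and red after maturation) in each of the 6 arrays, with the group mean ± SD (black squares, n = 3) and the median and lower quartile of all probes of each array (solid and dotted lines). The points lie at 8.87 to 9.38 before maturation and, at 3.99 to 4.25, just under the dotted lines after it.

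The group means were 9.04 ± 0.30 before and 4.14 ± 0.13 after maturation (SD, n = 3). The log2 difference, after minus before, was -4.90 with a standard error of 0.15, a measured 29.9-fold lower level. Taken by replicate number the measured level was 25.9-fold, 24.6-fold and 42.0-fold lower in replicates 1, 2 and 3, the last holding both the highest array before and the lowest array after maturation. After maturation CD55 lay 0.20, 0.20 and 0.34 log2 units under the lower quartile of its array. No background level comes with these values, so at such a dim level the fold is not exact and may understate the change. In such pools fewer cells of a type and less RNA per cell cannot be told apart.

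By size of decrease CD55 stood at rank 2 of the 12258 probes, of which 24 were at least 8-fold lower and 4 at least 16-fold lower. PTER, a phosphotriesterase-related gene, stood at rank 1 with -5.32 (SE 0.20), and HSD17B1, an oestradiol-synthesis enzyme gene, at rank 3 with -4.41 (SE 0.24). Same-numbered differences ran from -5.82 to -4.94 for PTER, from -5.39 to -4.62 for CD55 and from -4.89 to -3.62 for HSD17B1. The range of CD55 overlapped those of PTER and HSD17B1, which did not overlap each other. PTER had a larger decrease than CD55 in all 3 replicate numbers, while CD55 and HSD17B1 changed places between numbers. The rank was the same under every scaling and without any 1 array, although a scaling that shifts all probes alike cannot change it. Holding the ribosomal protein genes level as the scaling adds 0.50 to every probe's difference and gave -4.40 for CD55, a measured 21.1-fold lower level.

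The spread of CD55 was not even between the groups. Its SD before maturation was larger than that of 88.3% of probes, and its SD after maturation larger than that of 57.9%. Replicate 3 before maturation lay 0.51 above the next array, and 2.80% of probes had at least that gap there.

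The named genes whose 6 values lay closest to those of CD55, each gene centred on its own mean, were PTER, HSD17B1, ID2, RASL11B and ITM2A. The root mean square difference from CD55 over the 6 arrays was 0.24, 0.36, 0.49, 0.64 and 0.66 log2 units in that order, where the median named probe lay at 2.50. These genes were picked on the same contrast and their values are a description. PTER had its highest level in replicate 3 before maturation (9.82, against 9.07 and 9.01), as CD55 did. ITM2A, a membrane protein gene, had 7.54 in that array against 7.02 and 6.92. ID2, an inhibitor of DNA-binding factors, did not follow this, with 10.55, 10.12 and 10.52 in replicates 1, 2 and 3.

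**Figure D2:**
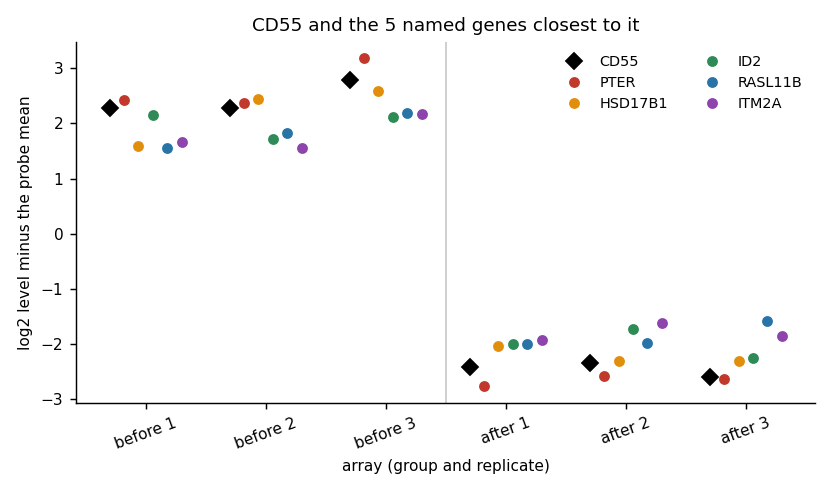
Log2 level minus the probe's own mean over 6 arrays (vertical axis) for CD55 and the 5 named genes closest to it, by array. All 6 genes are high in the 3 arrays before and low in the 3 after maturation, and CD55 lies between PTER and HSD17B1 in replicate 3 before maturation.

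The other regulators of complement on the cell surface showed no decrease of this size. Of 9 listed genes besides CD55, 6 were measured, and limma called 0 of them (2 at an unadjusted p under 0.05), where 11.3% of all probes were called, 3.21% higher and 8.07% lower (adjusted p under 0.05). CD59, which blocks the last step of pore formation and is also GPI-anchored, read 9.40, 9.73 and 9.34 on the log2 scale before maturation and 9.23, 9.001 and 9.13 after it. All 3 arrays were lower after maturation, by 0.37 on average (SE 0.13, limma adjusted p = 0.0950), which did not pass the test and turned to 0.13 with ribosomal protein genes held level. CSMD2, CSMD3, SUSD4, VSIG4 and THBD had differences of 0.13 to 0.27. CD46 and CR1 were not analysed here.

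Among regulators in body fluids CLU, which encodes clusterin, an inhibitor of pore assembly, was lower after maturation. The arrays read 7.80, 7.18 and 7.41 before maturation and 7.01, 5.62 and 5.84 after it, so the groups did not overlap but replicate 1 after maturation came close. CLU fell by 1.30 (SE 0.34, limma adjusted p = 0.0433), and the call was lost after a second quantile normalization (adjusted p = 0.0653) and without any 1 array other than replicate 1 after maturation (adjusted p = 0.0637 to 0.142). It was the only one called of the 6 measured genes of this list (16.7%, beside 11.3% of all probes). SERPING1, the C1 inhibitor gene, had a value of -0.39 (adjusted p = 0.110), and CFI, the protease that inactivates C3b and C4b, had 0.06 (adjusted p = 0.716).

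The measured components that start and amplify the cascade did not pass the test on the deposited scale. C2 and CFB of these pathways were not analysed here. Of 11 measured genes of the classical and lectin pathways limma called 0 (3 at an unadjusted p under 0.05), where 11.3% of all probes were called. The 11 genes had differences of -0.05 to 0.29 and a median of 0.20, where the median of all probes was 0.08. Arrays of the groups did not overlap in the higher direction for 8 of them, where 21.7% of all probes did so (14.4% in the lower direction and 36.1% in either). The lower quartile of all probes was itself higher after maturation, at 4.33 to 4.45 against 4.27 to 4.30 before it. C4A, a source of the classical convertase, had 4.14, 4.13 and 4.02 before and 4.27, 4.39 and 4.19 after maturation (difference 0.18, SE 0.09, adjusted p = 0.231). C3, the central component, had 3.95, 3.90 and 3.88 before and 4.53, 4.01 and 4.01 after maturation (difference 0.28, SE 0.15, adjusted p = 0.244). All C4A values lay under the lower quartile of their arrays, as did all C3 values other than that of replicate 1 after maturation. CFD, the factor D protease, and CFP, properdin, had differences of 0.19 and 0.30. Of C3, CFD and CFP, 3 genes of the amplification loop, 0 were called (1 at an unadjusted p under 0.05), beside 11.3% of all probes.

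Of 7 measured genes of the terminal pathway 1 passed the test (14.3%, beside 11.3% of all probes). This was C9, whose product forms the wall of the pore. Its log2 values were 3.45, 3.38 and 3.40 before maturation and 4.54, 4.19 and 4.18 after it, so all arrays after maturation were higher. C9 rose by 0.90 (SE 0.12, limma adjusted p = 0.00211), from levels under the lower quartile of every array before maturation. Replicates 2 and 3 after maturation were still under the lower quartile of their arrays. C6 and C7, which take part in pore assembly, had differences of -0.53 and -0.49 (adjusted p = 0.191 and 0.126), and the other 4 of the 7 genes had -0.06 to 0.15.

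Of the 3 measured receptors for complement fragments 2 fell, where 8.07% of all probes did. C5AR2, a second receptor for C5a, had 5.74, 6.09 and 6.16 before and 5.16, 5.22 and 5.26 after maturation, with no overlap. It fell by 0.78 (SE 0.12, limma adjusted p = 0.00562), and had -0.28 without the call when ribosomal protein genes were held level (adjusted p = 0.0939). CALR, an abundant chaperone that also binds C1q, fell by 0.36 (SE 0.09, adjusted p = 0.0317). CALR was not called with each array at a common median (adjusted p = 0.0511) or without any 1 array other than replicate 1 before maturation, and turned to 0.14 with ribosomal protein genes held level. LRP1 had -0.29 (adjusted p = 0.107).

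Over all 36 measured complement genes besides CD55, 1 rose and 3 fell, or 11.1%, beside 11.3% of all probes. Their median difference was 0.12, against 0.08 for all probes, and 10 of them lay under the lower quartile in all 6 arrays. With ribosomal protein genes held level all 11 initiation genes and all 3 amplification genes were called higher, as were 9847 of all 12258 probes. Whether these small differences passed the test thus depends on the scaling. A second quantile normalization and cyclic loess called 0 of them and made differences smaller, to 0.09 and 0.08 for C4A and 0.19 and 0.18 for C3. The lowest difference among the 36 was that of CLU, -1.30, and that of CD55 was -4.90.

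**Figure D3:**
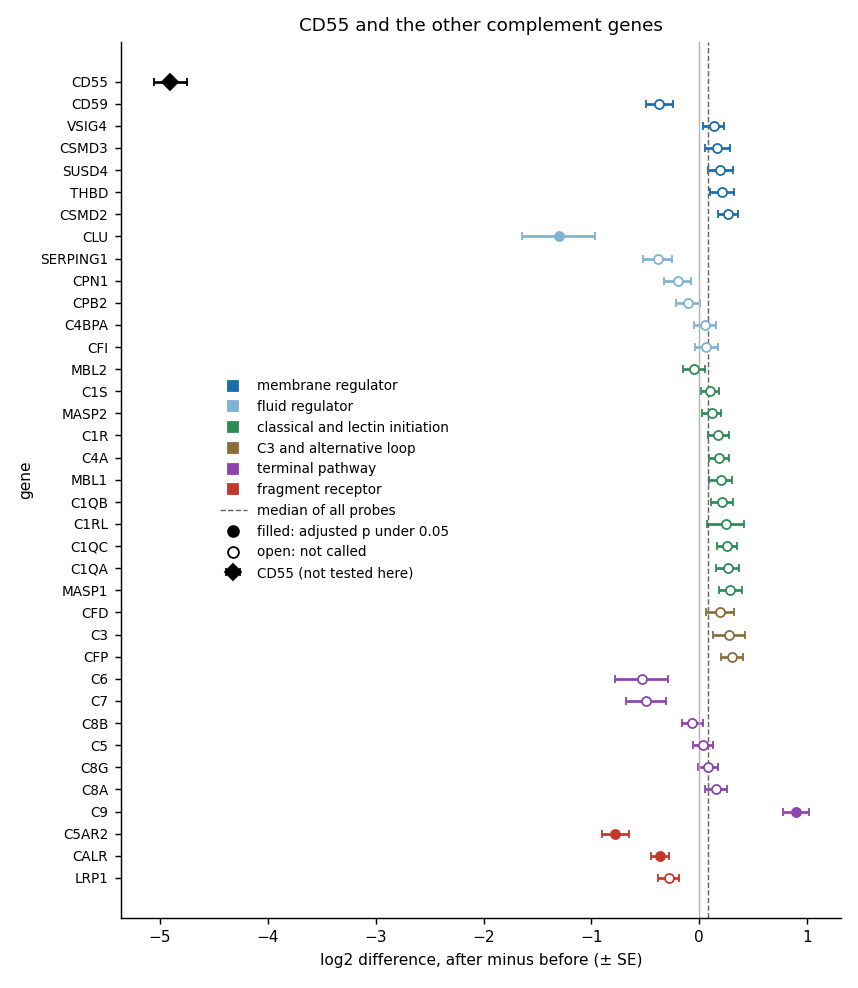
Log2 difference, after minus before maturation, with its standard error, for CD55 (black diamond) and 36 other complement genes coloured by role; filled circles passed the limma test and the dashed line is the median of all probes (0.08). CD55 lies at -4.90, and the others between -1.30 (CLU) and 0.90 (C9).

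The adhesion receptor that binds CD55 was close to level between the groups. ADGRE5 read 4.77, 4.67 and 4.72 on the log2 scale before maturation and 4.80, 4.71 and 5.02 after it, with overlapping groups (difference 0.12, SE 0.11, limma adjusted p = 0.478).

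Of 34 listed genes that make and attach the GPI anchor 15 were measured, and limma called 2 lower and 0 higher (13.3%, beside 11.3% of all probes), with a median difference of -0.21. With ribosomal protein genes held level 7 were called higher and 2 lower, where 9847 of all 12258 probes were called higher and 494 lower. DPM3, a subunit of the enzyme that makes the mannose donor, had 9.15, 9.52 and 9.21 before and 8.22, 8.08 and 8.33 after maturation, and fell by 1.09 (SE 0.13, adjusted p = 0.00114). PIGB, a mannosyltransferase of the anchor, had 4.98, 4.77 and 6.07 before and 4.13, 4.04 and 4.17 after maturation, again with replicate 3 highest before. PIGB fell by 1.16 (SE 0.29, adjusted p = 0.0399), a call that was lost without any 1 of the arrays after maturation (adjusted p = 0.0893 to 0.131). PIGA, which acts at the first step of anchor synthesis, had -0.08 (adjusted p = 0.749).

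Of 81 listed genes of other proteins with a GPI anchor 51 were measured, 5 fell, 1 rose and 45 were not called (11.8% called, beside 11.3% of all probes), with a median difference of 0.11. The split depended on the scaling, with 4 higher and 3 lower at a common median of the arrays and 3 and 4 after a second quantile normalization. It was 41 and 3 with ribosomal protein genes held level, which called 9847 of all 12258 probes higher and 494 lower. CD58, an adhesion ligand, fell by 1.86 (SE 0.24, adjusted p = 0.00199), from 6.56, 5.72 and 6.65 to 4.25, 4.40 and 4.70. BST1, a surface ADP-ribosyl cyclase, fell by 1.78 (SE 0.25, adjusted p = 0.00335), and its level was highest in replicate 3 before maturation, at 6.55 against 5.46 and 5.65. CNTN3, a contactin, fell by 1.75 (SE 0.21, adjusted p = 0.00122). GFRA1, a receptor for glial cell line-derived neurotrophic factor, rose by 0.44 (adjusted p = 0.0186), and was not called without replicate 1 or 2 after maturation (adjusted p = 0.0763 and 0.0705).

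Genes that share sushi repeats with CD55 were mostly not called. Of 48 listed genes 26 were measured, 2 fell and 0 rose (7.69% called, beside 11.3% of all probes), with a median difference of 0.15, and C1R, C1S, C4BPA and several others of this list also stand in the complement lists. At a common median 2 were higher and 1 lower, and after a second quantile normalization 1 and 1. With ribosomal protein genes held level the counts were 22 and 0, where 9847 of all 12258 probes were called higher and 494 lower. VCAN, a matrix proteoglycan, fell by 0.59 (SE 0.14, limma adjusted p = 0.0278), and GABBR1, a GABA receptor subunit, fell by 0.49 (SE 0.13, adjusted p = 0.0460). VCAN was not called without any 1 array after maturation or with ribosomal protein genes held level. GABBR1 lost the call under 3 scalings and without any 1 of 5 arrays, and turned to 0.0075 with ribosomal protein genes held level.

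CD55 lies in the cluster of complement regulator genes, and its neighbours were read from the order of genes in RefSeq assembly Sscrofa11.1. Of the 10 named genes on each side 11 had a probe, and limma called 1 lower and 0 higher (9.09%, beside 11.3% of all probes). Nearest on one side, the 2 genes named C4BPA, for the alpha chain of the C4b-binding protein, had differences of 0.07 and 0.05, from levels under the lower quartile of every array. On the same side PFKFB2, YOD1, FCAMR, PIGR and IL24 had -0.23, 0.18, 0.20, 0.31 and 0.21, none of which passed the test (adjusted p = 0.138 to 0.546), and PFKFB2 turned to 0.27 with ribosomal protein genes held level. SRI, the gene of the calcium-binding protein sorcin, on the other side, had 9.92, 9.89 and 10.08 before and 8.99, 9.11 and 8.91 after maturation. SRI fell by 0.96 (SE 0.10, limma adjusted p = 0.000695). STEAP4, ZNF804B and STEAP2 beyond it had 0.15, 0.29 and 0.21 (adjusted p = 0.101 to 0.386).

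**Figure D4:**
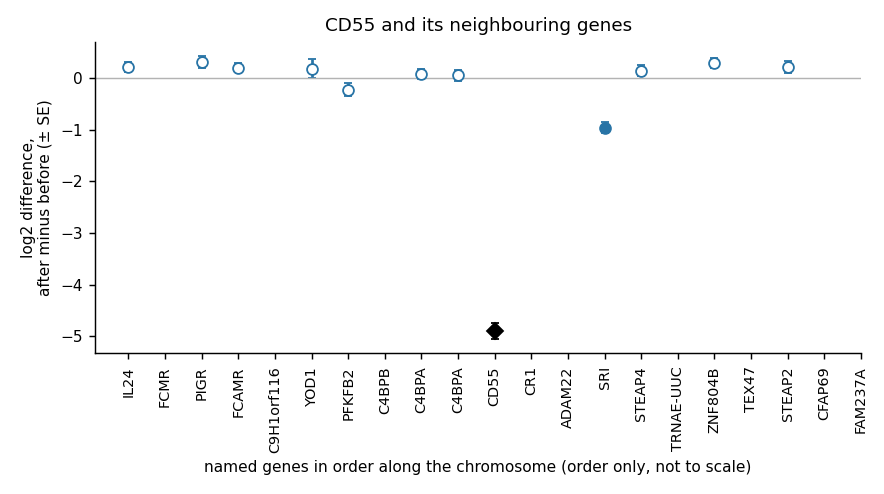
Log2 difference, after minus before maturation, with its standard error, for CD55 (black diamond) and its measured neighbours in the order of genes along the chromosome; a gene with no point was not analysed here. Of the neighbours only SRI (filled) passed the test, at -0.96, and the open circles lie between -0.23 and 0.31.

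CD55 also belongs to the CD surface antigens, and 53 other genes with a CD symbol were measured. The list was made by symbol, so CD antigens under other symbols were not counted. Among these 7 fell and 2 rose (17.0% called, beside 11.3% of all probes), the lowest difference being that of CD58, and CD9, a tetraspanin that the egg needs for fusion with sperm, fell by 1.60 (limma adjusted p = 0.00290) from 6.65, 5.99 and 6.93 to 4.87, 4.78 and 5.12.

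Markers of cumulus and granulosa cells moved both ways, with 7 of 15 measured markers lower, 3 higher and 5 not called (66.7% called). Of all probes 11.3% were called, 3.21% higher and 8.07% lower. Their summed level on the linear scale was 5871 to 7871 before and 1905 to 2134 after maturation, highest in replicate 3 before maturation, where CD55 was highest too. Such a sum is weighted to the brightest genes, and the list holds HSD17B1, named above as close to CD55. The mean log2 level of the list moved less, from 6.81 to 7.07 before to 6.17 to 6.39 after maturation, with a median difference of -0.54. GJA1, the gap junction gene of the cumulus layer, fell by 2.27, SERPINE2, a protease inhibitor gene, fell by 2.92, and HSD3B1, of progesterone synthesis, rose by 3.95 (limma adjusted p of these 8.94e-06 to 2.45e-05). The summed level of 12 oocyte markers was 33277 to 35660 before and 31483 to 32521 after maturation, with 3 called lower and 0 higher. Theca and stromal markers summed to 460.7 to 607.6 before and 445.7 to 463.9 after, endothelial markers to 390.9 to 418.8 and 400.0 to 468.8, and leukocyte and erythroid markers to 533.8 to 593.8 and 624.5 to 652.8. The 0 calls among 7 endothelial markers came with 2 at an unadjusted p under 0.05. Of the 10 theca and stromal genes 2 rose and 1 fell (30.0% called), and 1 of 11 leukocyte and erythroid markers rose (9.09% called). The files do not say which cells of the complexes held CD55 RNA, and the part of the somatic cells in its decrease was not tested.

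**Figure D5:**
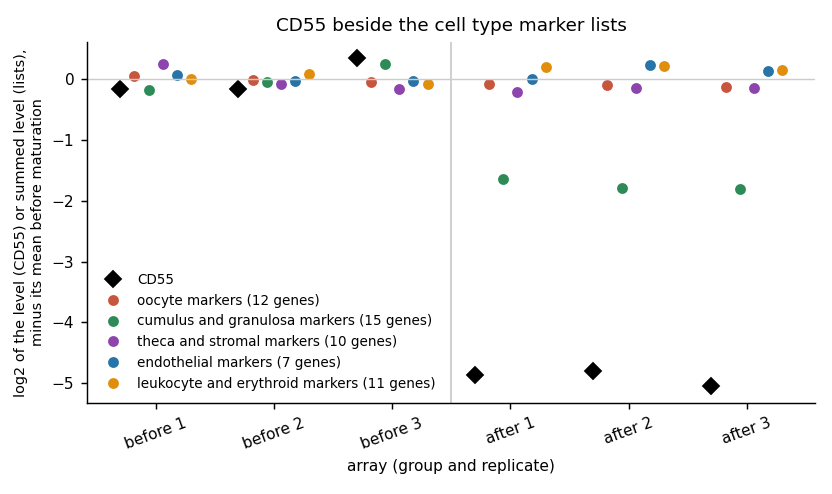
Log2 level of CD55 (black diamonds) and log2 of the summed linear level of 5 marker lists (circles), each minus its mean over the 3 arrays before maturation, by array. CD55 and the summed level of the cumulus and granulosa markers, weighted to the brightest genes, are lower in all 3 arrays after maturation, CD55 by more. Both are highest in replicate 3 before it.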

How the data were processed

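The deposited table holds log2 values made by the authors with RMA, per the submitters' processing notes. The version and settings of RMA were not given in the sources used here, and the log2 scale rests on RMA and on the values themselves. Of 12258 probes 10715 had 1 gene symbol, 475 several and 1068 none listed; symbols were updated by gene identifier to RefSeq assembly Sscrofa11.1, of which the names and the order of genes were used and no coordinates are given. For a gene with several probes the brightest was taken. The test across all probes was that of limma 3.58.1 (R 4.3.3, linear fit with eBayes, two-sided, Benjamini-Hochberg over all probes, threshold 0.05). Its code was also run on simulated data with independent noise, which does not mimic deviations that probes of an array share. With 3 arrays a group the smallest two-sided p of an exact permutation test is 0.1. P-values reflect the spread between pools that the labels call biological replicates. The number of arrays limits the precision.

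CD55 and the gene lists were chosen with earlier results of these data known. Genes named are CD55, CD46, CD59, C3, C4A, CFB, CFI, CLU and ADGRE5 where measured, every called complement gene, up to 4 called members with the smallest p in other lists (the 2 smallest p where fewer than 2 passed), measured neighbours and the 5 genes closest to CD55; any other gene was picked with its values in view. Same-numbered arrays deviated together from their group means (correlations 0.283, 0.120 and 0.142, against -0.168 to 0.019 for arrays of different number). With so few arrays this is only a hint from the data that the numbers pair the arrays, and the main fit did not use it. Alternatives were 4 scalings, the replicate block, a filter on the dimmest 25% of probes, trend and robust settings, named genes only and leaving out each array. Tables and figures used Python 3.11.15, pandas 2.3.3 and matplotlib 3.10.9.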

Additional observations from a re-analysis of the deposited data

How the results depend on the processing

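CD55 kept its negative difference and its rank under every alternative. The common median, the ribosomal scaling, the replicate block and the trend and robust settings could not have changed the rank. Nor could the filter on dim probes or the limit to named genes, which kept CD55 and PTER with their differences unchanged. The difference was -4.99 to -4.73 without any 1 array, -4.90 with the replicate block and -4.40 with ribosomal protein genes held level. That scaling shifts all probes upward by construction, and it moved the median of all probes from 0.08 to 0.58. It called 9847 probes higher and 494 lower, 5 membrane regulators, 4 fluid regulators, 11 initiation, 3 amplification and 5 terminal pathway genes, 0 fragment receptors, the 1 binding partner of CD55, 9 anchor synthesis genes (7 higher), 44 other GPI-anchored genes (41 higher), 22 sushi genes (all higher) and 10 neighbours (9 higher), and turned CALR to 0.14, GABBR1 to 0.0075, CD59 to 0.13 and PFKFB2 to 0.27. With each array at a common median 915 probes were higher (median 0.14), and 1 membrane regulator, 1 amplification gene, 1 fragment receptor, 7 GPI-anchored genes and 3 sushi genes were called. A second quantile normalization gave 596 higher probes, 0 fluid regulators, 7 GPI-anchored genes, 2 sushi genes and 2 neighbours, and cyclic loess gave 254 higher probes. Of all calls 71.5% were lower, against 49.3% with a common median, 59.2% with the second quantile normalization, 80.6% with cyclic loess and 4.78% with ribosomal protein genes held level. The replicate block gave 621 higher probes, 2 fluid regulators and 8 GPI-anchored genes, and moved no other count of calls by over 1.5 times. Without the dimmest 25% of probes 0 terminal pathway genes, of the 1 still tested, and 7 GPI-anchored genes were called. Leaving out 1 array gave 103 to 434 higher and 531 to 1013 lower probes, 0 to 1 fluid regulators, 1 to 2 fragment receptors, 1 to 4 anchor synthesis genes, 3 to 7 GPI-anchored genes and 0 to 3 sushi genes. Causes of these shifts were not tested. Dim levels after maturation limit the fold of CD55, since detection calls were not analysed here.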
